A study of Sus scrofa with 63 samples.

Results

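The comparison described here is that of sulfur mustard-exposed with unexposed abdominal skin of pigs at 336 h, 14 days after exposure. It rests on 6 of the 63 arrays of the series, 3 exposed and 3 control, chosen by the time and treatment in their titles. The animals were female Yorkshire crossbred pigs. After hair removal, 400 µL of undiluted agent was left on the belly skin for 8 min, and a template kept the lesions to 3 cm. Each exposed animal had 2 exposed and 2 unexposed sites, so the control skin came from animals that also carried lesions. At each time 3 such animals were used, and 1 further animal was a sham, prepared in the same way but given no agent. The labels do not say which animal or site a replicate number stands for. Punch biopsies of 8 mm were taken from whole skin, and cRNA made from 10 µg of total RNA was hybridized to Affymetrix GeneChip Porcine Genome arrays. Values are log2 signals from robust multi-array averaging (RMA), and a difference of 1 is a 2-fold change of signal.

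Sulfur mustard is a bifunctional alkylating agent that damages DNA and kills basal keratinocytes, which blisters the skin. Repair of such a wound passes through infiltration by leukocytes, migration and proliferation of keratinocytes over a provisional matrix, and replacement of that matrix by collagen. During this repair proteases such as collagenases clear damaged matrix, keratinocytes restore the cornified layer, and the leukocyte genes fall back as inflammation ends. Sulfur mustard lesions are known to heal slowly. For a gene with several probe sets the values are those of its brightest.

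The sites still differed by histology. On the total score of the labels, on which normal skin has 13 points, the exposed sites had 5, 6 and 10 (replicates 1, 2 and 3), and each of the 3 control sites and the sham had 13. The mean was 7 ± 2.65 (SD, n = 3) in exposed sites, and the exact two-sided permutation p was 0.1, the smallest that 3 against 3 allows. Each item adds to this total, so a lower item score lies further from normal skin and does not mean that the feature is absent. Complete re-epithelialization was scored 0, 0 and 1 in the exposed sites and 1 in every control site. The score for inflammatory cells was likewise 0, 0 and 1 against 1, and that for collagen orientation was 1, 1 and 3 against 3. The items for epidermal hyperplasia, vascular proliferation and hemorrhage were at 0, away from normal, in all 3 exposed sites. They were at 1, as in normal skin, in all controls. Exposed site 3 was thus the one closest to normal skin by score.

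The biopsies also differed in muscle. The mean log2 level of 37 skeletal muscle genes was 10.8, 8.74 and 7.80 in exposed arrays 1 to 3 and 11.88, 11.52 and 7.59 in control arrays 1 to 3, with 7.54 in the sham. The arrays numbered 3 and the sham therefore held little muscle signal, and the group means did not differ beyond the spread (difference -1.22, exact permutation p = 0.6). Both arrays numbered 1 and exposed array 2 were extracted on 1 day, and control array 2, both arrays numbered 3 and the sham on another. The dates of in vitro transcription split these arrays in the same way, so the extraction day cannot be told apart from that step. Both arrays numbered 3 and the sham also came from animals killed on another day than those of replicates 1 and 2, so what sets replicate 3 apart cannot be told apart from that day. Skin genes were high in all 6 arrays: KRT1 and KRT10, keratins of the spinous layer, lay between 13.76 and 14.20, and DCN, the gene of the dermal proteoglycan decorin, between 13.62 and 14.05. The 3 prime to 5 prime differences of actin, EF1A and GAPDH gave exact permutation p values of 0.8, 0.9 and 0.6. With 0.1 as the smallest p possible, these tests cannot show that RNA quality was equal. GAPDH was at 0.29, 0.62 and 0.70 in exposed arrays 1 to 3 and 0.14, 0.14 and 0.83 in the controls. Actin was at 0.76, 0.94 and 0.96 against 0.99, 0.48 and 1.29. In whole biopsies fewer cells of a type and less RNA per cell cannot be told apart.

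At 336 h, 970 of 23999 probe sets (4.04%) passed an adjusted p of 0.05 in limma, 571 higher (2.38%) and 399 lower (1.66%) in exposed skin. At the level of genes, with the brightest probe set standing for each gene, 407 of 6765 (6.02%) were called, 283 higher (4.18%) and 124 lower (1.83%). A change of at least 2-fold was seen for 89 of the higher and 41 of the lower genes. A fit that blocks on replicate number called 1736 probe sets (7.23%), 945 higher and 791 lower, and 708 genes, 464 higher (6.86%) and 244 lower (3.61%). On the 6 arrays alone with that block, 959 probe sets were higher and 1028 lower, so the excess of higher calls turned. Of the 407 genes 396 had no overlap between the 3 exposed and the 3 control arrays, against 17.9% of all genes with every exposed array above and 10.4% with every exposed array below. A lack of overlap, where given below for a called gene, therefore adds no separate support to its call. All 407 had the same sign within both extraction days. These genes were called on the same arrays, so this sign adds no separate support. With the extraction day as a block 244 of the 407 were called. That fit had 395 probe sets higher and 252 lower, and 181 genes higher and 81 lower. With the muscle level as a covariate 379 of the 407 were called.

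Differences were smaller in pair 3. Of the 407 called genes 274 had their smallest difference in pair 3 and 34 their largest, and the median size of the difference was 0.78 in pair 1, 0.93 in pair 2 and 0.59 in pair 3. The count of called probe sets was 450 without exposed array 1, 432 without exposed array 2, 490 without control array 2 and 575 without control array 3. It was 1201 without exposed array 3. Without both arrays of replicate 1, 2 or 3 it was 270, 161 and 678, each from fits with fewer arrays. Of the 96 genes named below by rule that passed the threshold, 48 were called whichever single array was left out and 30 in each fit without both arrays of a replicate number. All 96 were called with the replicate block, 91 with the muscle level and 74 with the extraction day as a block. The 22 not called with the extraction day were C3, CCR1, CHEK2, COL1A2, CRY2, CXCR4, FABP7, GADD45A, GSTO1, HOPX, ITIH4, LOC100152327, NQO1, PLK2, PPL, S100A12, SELP, SLA-DQB1, SPP1, SPRP, TPM3 and UCHL1 (adjusted p 0.0571 to 0.204). The 5 not called with the muscle level were CHEK2, CRY2, SLA-DQB1, SPRP and TPM3 (0.0504 to 0.0608).

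The 3 genes with the largest rises were CXCL8, MMP1 and ARG1. CXCL8, the neutrophil-attracting chemokine interleukin 8, had log2 signals of 12.10, 10.22 and 9.80 in exposed arrays 1 to 3 against 8.80, 5.60 and 4.93 in the controls. The lowest exposed array lay above the highest control. The mean rise was 4.26 ± 0.70 on the log2 scale, or 19.2-fold, with an adjusted p of 0.000157 in limma. Here ± is the standard error of the limma fit, for 3 against 3 arrays with the spread pooled over all times of the series. MMP1, interstitial collagenase, was at 11.42, 10.77 and 8.34 in exposed and 6.95, 6.11 and 5.77 in control skin. It rose by 3.90 ± 0.58 (15.0-fold, adjusted p = 3.53e-05), with exposed array 3 again lowest. ARG1, the arginase of alternatively activated macrophages, was at 10.86, 9.84 and 7.40 against 7.06, 5.16 and 4.92, a rise of 3.66 ± 0.74 (adjusted p = 0.00188). Control array 1 was the highest control for CXCL8, MMP1 and ARG1.

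**Figure D1:**
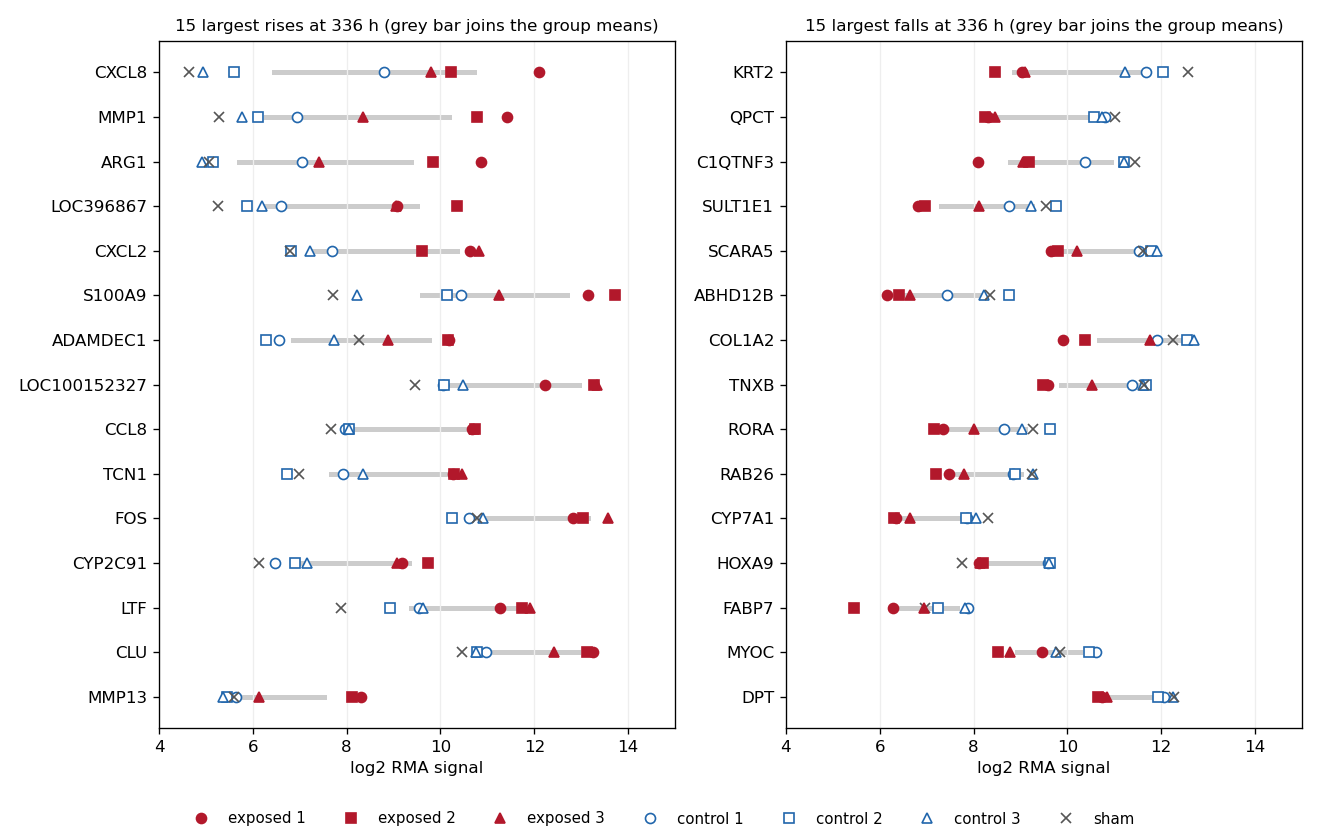
Log2 RMA signal (x axis) of the 15 genes with the largest called rise and the 15 with the largest called fall at 336 h, in 3 exposed arrays (filled red), 3 control arrays (open blue; the shape gives the replicate number) and the sham array (cross). Grey bars join the group means. Exposed and control arrays do not overlap for any of the 30 genes, as in 396 of all 407 called genes. For HOXA9 the sham array, at 7.75, lies below the exposed arrays.

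Neutrophil and macrophage genes had positive differences throughout. Of 37 genes measured 17 rose and none fell, against 4.18% and 1.83% of all genes, and the median difference was 0.86, against 0.02 over all genes. The same shares stand against the counts of the lists that follow. With the replicate block the shares of all genes were 6.86% higher and 3.61% lower. All 37 differences were positive, and the mean level of the list was 9.71, 9.79 and 9.39 in exposed arrays against 8.75, 8.62 and 8.66 in controls and 8.45 in the sham. S100A9, a subunit of the antimicrobial protein calprotectin, was at 13.13, 13.72 and 11.25 against 10.44, 10.15 and 8.22. It rose by 3.10 ± 0.70 (adjusted p = 0.00518). LTF, the iron-binding protein lactoferrin of neutrophil granules, rose by 2.27 ± 0.47 from control values of 9.54, 8.93 and 9.62 to 11.27, 11.75 and 11.90 (adjusted p = 0.00209). Exposed array 3 was the highest for LTF and the lowest for S100A9, and the groups did not overlap for either gene.

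Further members of the list were called, and others were not. GP91-PHOX, which RefSeq lists as a synonym of CYBB, the catalytic subunit of the phagocyte oxidase, rose by 1.46 ± 0.33 (adjusted p = 0.00639). CCR1, a chemokine receptor, rose by 1.20 ± 0.28 and GPNMB, a glycoprotein of lipid-laden and wound macrophages, by 1.13 ± 0.20. SPI1, the myeloid transcription factor PU.1, rose by 1.13 ± 0.25 and VSIG4, a complement receptor of resident macrophages, by 1.07 ± 0.25. CD163, a scavenger receptor of macrophages, had a difference of 0.64 ± 0.38 (adjusted p = 0.479), and CD14 one of 0.31. S100A12, a neutrophil protein of the same family as S100A9, rose by 1.33 ± 0.37, although exposed array 3 (7.21) lay below control arrays 1 and 2 (7.91 and 7.35). With the replicate block 23 of the 37 were called, and with the extraction day as a block 10. The counts were 6, 2 and 12 without both arrays of replicate 1, 2 or 3, while the medians were 0.82, 0.73 and 0.95. The count was 10 without exposed array 1, 5 without exposed array 2, 10 without control array 2 and 11 without control array 3. The call of S100A9 was lost without exposed array 2 (adjusted p = 0.0711) or control array 3 (0.0768), that of GP91-PHOX without exposed array 2 (0.0767), and that of CCR1 without exposed array 1 (0.114), exposed array 2 (0.0524) or control array 3 (0.0503). S100A12 was not called without exposed array 1 or 2 or control array 2 or 3 (highest adjusted p 0.44). SPI1 and VSIG4 lost their calls in 1 and 2 of the 6 fits without 1 array (highest adjusted p 0.052 and 0.0964).

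Cytokines and chemokines also rose in part. Of 41 measured 12 rose and none fell, with a median of 0.55. CXCL2, like CXCL8 a ligand of neutrophil receptors, was at 10.62, 9.60 and 10.82 against 7.70, 6.80 and 7.21, a rise of 3.11 ± 0.46 (8.64-fold, adjusted p = 4.17e-05). CCL8, a monocyte chemoattractant, was at 10.66, 10.74 and 10.71 against 7.97, 8.04 and 8.05. Its arrays were close within each group, and it rose by 2.68 ± 0.46 (6.42-fold, adjusted p = 0.000275). CCL2, which attracts monocytes, rose by 1.53 ± 0.36 and IL10, an anti-inflammatory cytokine, by 1.43 ± 0.24 (adjusted p = 0.000265). IL6 rose by 1.28 ± 0.37 (adjusted p = 0.037), PTGES, a synthase of prostaglandin E2, by 1.28 ± 0.23 and the adhesion molecule ICAM1 by 0.99 ± 0.27. Under the replicate block 13 were higher and 1 lower, and with the extraction day 8 were higher. The classic early cytokines IL1B and TNF did not pass, at 0.77 ± 0.50 (adjusted p = 0.548) and 0.42 ± 0.13 (adjusted p = 0.0586). PTGS2, the inducible cyclooxygenase, was at 0.61 ± 0.36. IL6 was not called in any fit without 1 array (highest adjusted p 0.116), and ICAM1 was lost in 5 of the 6 (highest 0.114). The count of rises was 6 without exposed array 1 or 2, 7 without any 1 control array and 10 without exposed array 3. Without both arrays of replicate 1, 2 or 3 it was 5, 5 and 6, with medians of 0.46, 0.40 and 0.69.

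Few lymphocyte and antigen presentation genes passed the test. Of 29 lymphocyte genes 3 rose and none fell (median 0.32): IL2RG, the common gamma chain of cytokine receptors, by 1.25 ± 0.32, the chemokine receptor CXCR4 by 1.14 ± 0.32 and CXCR6 by 0.54 ± 0.14. T cell receptor genes did not pass, with CD3E at 0.50 ± 0.35 (adjusted p = 0.59) and CD8A at 0.46 ± 0.35. JCHAIN, the joining chain of secreted antibodies and the mark of plasma cells, was at 11.16, 11.79 and 11.88 in exposed and 9.17, 8.76 and 9.29 in control arrays, without overlap. Its difference of 2.54 ± 0.80 had an adjusted p of 0.0655, and of 0.00645 with the replicate block, in which 7 of the 29 were called. Of 27 antigen presentation genes 2 rose (median 0.48), against 4.18% of all genes. They were IRF8, a transcription factor of monocytes and dendritic cells, at 1.35 ± 0.26 and the class II gene SLA-DQB1 at 0.80 ± 0.23. Of these 27, 26 had a positive difference and 8 were called with the block. SLA-DQB1 was called only with all arrays or without exposed array 3 (highest adjusted p 0.217), so that 1 gene of the list was called in each of the 5 other fits without 1 array. The lymphocyte calls were not stable to single arrays: none of the 29 was called without exposed array 2, control array 2 or control array 3.

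**Figure D2:**
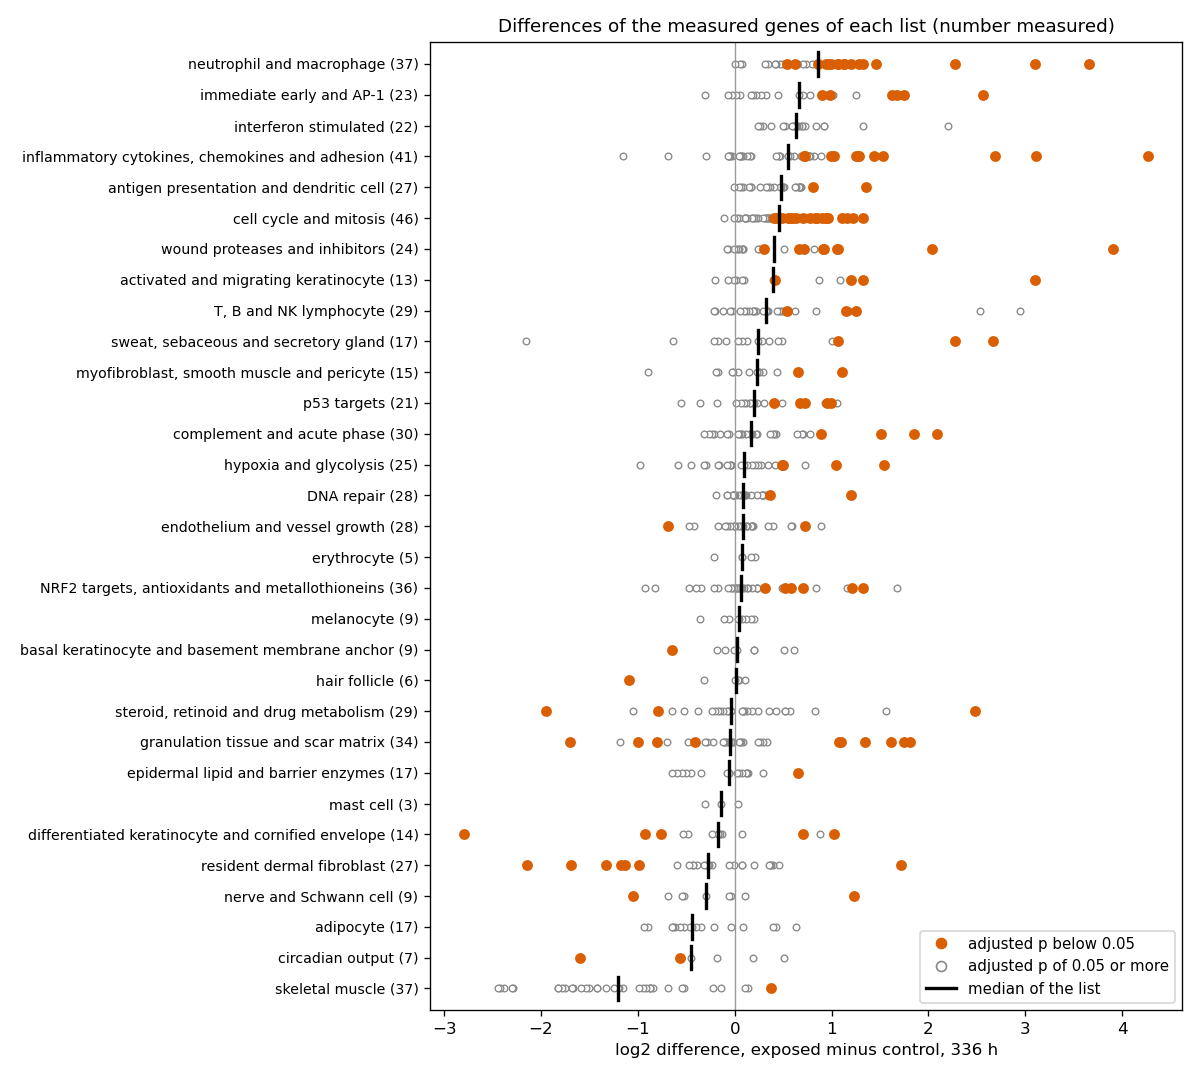
Log2 difference, exposed minus control at 336 h (x axis), of each measured gene of the 31 gene lists (rows, with the number measured); filled orange points passed an adjusted p of 0.05, open points did not, and the black bar is the median of the list. The neutrophil and macrophage list has the highest median (0.86) and 17 called rises, the granulation matrix list has 6 called rises and 4 called falls, and the skeletal muscle list has the lowest median (-1.20) with 1 called gene.

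Among proteases of the wound 9 of 24 rose and none fell, with a median of 0.40. MMP13, another collagenase, was at 8.31, 8.12 and 6.14 in exposed and 5.64, 5.45 and 5.37 in control skin. It rose by 2.03 ± 0.26 (4.09-fold, adjusted p = 2.57e-06), most in replicates 1 and 2. The other MMP13 probe set had a difference of -0.04. PLAU, the urokinase plasminogen activator, rose by 1.06 ± 0.20, PLAT, the tissue-type activator, by 0.91 ± 0.26, and the cathepsins CTSS and CTSK, lysosomal proteases of macrophages and of matrix breakdown, by 1.06 ± 0.25 and 0.93 ± 0.18. CTSZ, CTSD and CTSB, further lysosomal cathepsins, rose by 0.71, 0.66 and 0.30. PLAT was lost in 4, CTSZ in 6, CTSD in 1 and CTSB in 5 of the 6 fits without 1 array (highest adjusted p 0.293, 0.168, 0.0585 and 0.167), and PLAT was the only gene of these 4 whose groups overlapped. The gelatinase MMP9, a neutrophil and macrophage product, had a difference of 0.24 ± 0.14 (adjusted p = 0.469). The inhibitor TIMP1 was at 0.68 ± 0.22 (adjusted p = 0.0794) and reached 0.0289 with the replicate block, which called 13 of the list; the extraction day as a block left 6. Without exposed array 2 the count was 4, and the call of CTSS was lost (adjusted p = 0.0587). It was 6 without control array 2 or 3, and 4, 2 and 5 without both arrays of replicate 1, 2 or 3, with medians of 0.44, 0.33 and 0.48.

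Matrix genes moved in both directions. Of 34 genes of granulation tissue and scar 6 rose and 4 fell, and the median was -0.05. The genes that rose encode secreted matrix or matricellular proteins, a growth factor and a cadherin. SPP1 (osteopontin) rose by 1.81 ± 0.50, CYR61, a secreted matricellular protein, by 1.74 ± 0.46, TNC (tenascin-C) by 1.61 ± 0.40 and THBS1 (thrombospondin-1) by 1.34 ± 0.34. The other THBS1 probe sets were at 2.20, 1.45, 0.15 and 0.10, and only that at 2.20 was called. The growth factor TGFB1 was at 8.71, 8.74 and 9.15 against 7.78, 7.63 and 7.96, a rise of 1.08 ± 0.17 (adjusted p = 6.88e-05), and the cadherin CDH11 rose by 1.10 ± 0.20. Those that fell were COL1A2, COL5A1, P4HA2 and FBN1. COL1A2, a chain of type I collagen, was at 9.92, 10.38 and 11.76 in exposed and 11.91, 12.55 and 12.69 in control arrays. It fell by 1.70 ± 0.42 (to 0.308 of the control signal, adjusted p = 0.012), with exposed array 3 close to control array 1. The other COL1A2 probe set had a difference of -1.02 ± 0.37 (adjusted p = 0.12).

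P4HA2, a subunit of the enzyme that hydroxylates collagen prolines, fell by 1.00 ± 0.20 (adjusted p = 0.00175), COL5A1 by 0.80 ± 0.20 and the microfibril gene FBN1 by 0.41. LOX, which cross-links collagen, had a difference of -1.18 ± 0.36 (adjusted p = 0.0549, and 0.00232 with the replicate block). The block called 6 higher and 9 lower of the 34. FN1 and POSTN, abundant matrix genes of healing wounds, were at -0.11 ± 0.15 and -0.10 ± 0.16. The call of COL1A2 was lost without exposed array 1 (adjusted p = 0.153), exposed array 2 (0.0849), control array 2 (0.0653) or control array 3 (0.0737). That of SPP1 was lost without any of the same 4 arrays (0.0833 to 0.191), that of CYR61 without any array but exposed 1 (0.0536 to 0.112), that of TNC without exposed 1, exposed 2 or control 2 (0.0588 to 0.0766) and that of THBS1 without exposed 1, control 1 or control 2 (0.0536 to 0.0682). COL5A1 and FBN1 lost theirs in 3 and 4 of the 6 fits without 1 array (highest adjusted p 0.159 and 0.172). Rises and falls were 3 and 1 without exposed array 1, 3 and 2 without exposed array 2, 5 and 6 without exposed array 3, 4 and 4 without control array 1, 2 and 2 without control array 2, and 4 and 1 without control array 3. Without both arrays of replicate 1 the list had 2 rises and no fall, without replicate 2 it had 1 and 1, and without replicate 3 it had 4 and 4. With the extraction day as a block 5 rose and 1 fell, and with the muscle level as a covariate 6 rose and 8 fell.

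Some genes of resting dermal fibroblasts were lower. Of 27 measured 6 fell, 1 rose and 20 did not pass, 9 differences were positive, and the median was -0.28. The replicate block gave 8 falls and 2 rises. C1QTNF3, a secreted C1q-like protein, was at 8.11, 9.18 and 9.06 in exposed against 10.38, 11.21 and 11.20 in control skin and fell by 2.14 ± 0.46 (adjusted p = 0.00336). TNXB, the gene of tenascin-X, which organises collagen fibrils in the dermis, fell by 1.69 ± 0.26 (adjusted p = 5.72e-05). DPT (dermatopontin), a collagen-binding matrix protein, was at 10.73, 10.66 and 10.85 against 12.05, 11.93 and 12.25, a fall of 1.33 ± 0.22 (adjusted p = 0.000191). CCDC80, a secreted matrix protein, fell by 1.18 ± 0.23, PCOLCE2, an enhancer of procollagen processing, by 1.13 ± 0.16, and MFAP5, a microfibril component, by 0.98 ± 0.15. For each of these genes, which were chosen as called, the 3 exposed arrays lay below the 3 controls, against 10.4% of all genes.

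The exception was DPP4, a surface peptidase found on some fibroblasts and on lymphocytes, which rose by 1.72 ± 0.29 from control values of 7.75, 8.20 and 8.16 to 9.98, 9.47 and 9.80 (adjusted p = 0.000207). The most abundant members, DCN and LUM, had differences of -0.24 ± 0.08 (adjusted p = 0.101) and -0.06 ± 0.13. The count of falls was 5 to 7 when any 1 array was left out and 5, 5 and 7 without both arrays of replicate 1, 2 or 3. The call of C1QTNF3 was lost without exposed array 1 (adjusted p = 0.052). SCARA5, a ferritin receptor, is not on the list but was among the largest falls (1.86 ± 0.30, adjusted p = 0.000115).

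Among contractile genes of myofibroblasts and vessel walls, 2 of 15 measured rose and none fell, against 4.18% and 1.83% of all genes. The median was 0.23, against 0.02 over all genes. CNN2, a calponin of many motile cells, rose by 1.11 ± 0.16 (adjusted p = 2.21e-05) and the actin cross-linker ACTN1 by 0.65 ± 0.13. The other ACTN1 probe sets were at 0.48, which was called (adjusted p = 0.00414 in limma), and -0.02. The count of rises stayed at 2 without any 1 array, without both arrays of any replicate number and with the extraction day as a block. It was 3 with the replicate block. ACTA2, smooth muscle actin and the usual myofibroblast mark, was at 13.11, 13.24 and 13.06 in exposed and 13.05, 12.87 and 13.02 in control arrays, a difference of 0.15 ± 0.12 (adjusted p = 0.671). These signals lie near the upper end of the scale, whose highest value over the table was 14.53.

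Genes of differentiated keratinocytes went in both directions. Of 14 measured 2 rose and 3 fell, and the median was -0.17. With the extraction day as a block 1 rose and 1 fell. KRT2, a keratin of the late spinous and granular layers, was at 9.03, 8.46 and 9.09 in exposed skin and 11.68, 12.04 and 11.23 in controls. It fell by 2.79 ± 0.61 (to 0.144 of the control signal, adjusted p = 0.00404), the largest fall of any gene, and all 3 exposed arrays stayed below every control. The sham array was at 12.57. HOPX, a homeodomain protein of late keratinocyte differentiation, fell by 0.93 ± 0.24 and PPL (periplakin), a cornified envelope scaffold, by 0.76 ± 0.22. By contrast 2 precursors of the cornified envelope were higher. IVL (involucrin) rose by 1.02 ± 0.28, from 11.19, 11.08 and 11.61 to 12.26, 12.18 and 12.52. SPRP, which RefSeq lists with the synonym SPRR1B, a small proline-rich protein, rose by 0.70 ± 0.20. HOPX was not called without exposed array 1 or control array 2 or 3 (adjusted p 0.0643 to 0.158), PPL without exposed array 1 or 2 or control array 2 or 3 (0.0829 to 0.238), IVL without any array but control 3 (0.058 to 0.131) and SPRP without any array (0.064 to 0.121).

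KRT1 and KRT10 did not pass in either direction. KRT1 was at 13.84, 13.89 and 14.17 in exposed and 14.00, 14.16 and 14.15 in control arrays (difference -0.13 ± 0.27, adjusted p = 0.909). For KRT10 the difference was -0.17 ± 0.25 (adjusted p = 0.861). Both lie near the top of the scale. The protease KLK7, which sheds corneocytes, was at 0.88 ± 0.29 (adjusted p = 0.0724). These calls were sensitive to single arrays: no rise of the list was called without exposed array 1, 2 or 3 or control array 1 or 2, and 1 to 3 falls were called without single arrays. KRT2 was called without each single array, but its adjusted p was 0.0518 without both arrays of replicate 1 and 0.162 without both of replicate 2, and none of the 14 genes was called without replicate 1 or without replicate 2.

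Genes of activated keratinocytes rose in 4 of 13 cases, with none lower and a median of 0.39. Of these 4, S100A9 and S100A12 are also made by neutrophils and stand on that list too. The other two were AREG (amphiregulin), a ligand of the epidermal growth factor receptor, at 7.51, 7.52 and 7.48 against 6.53, 6.08 and 6.29 (1.20 ± 0.24, adjusted p = 0.00148), and S100A11 (0.42 ± 0.10). SLPI and S100A8 were called only with the replicate block, which called 6. Without exposed array 2 the count was 1, without exposed array 1, control array 2 or control array 3 it was 2, and without both arrays of replicate 2 it was 0. Of 9 basal and basement membrane genes only DST, which anchors keratin filaments to hemidesmosomes, was called, with a fall of 0.65 ± 0.15. The other DST probe sets were at 0.09 and -0.29 (adjusted p 0.777 and 0.241 in limma). Of 6 hair follicle genes GATA3, a transcription factor of follicle and epidermis, fell by 1.09 ± 0.24. The other GATA3 probe sets were at -0.94, -1.02 and -0.12. DST was not called without exposed array 3 (adjusted p = 0.069) or control array 2 (0.0627), nor GATA3 without exposed array 1 (0.0674). Of 17 epidermal lipid genes FABP5, the fatty acid-binding protein of keratinocytes, rose by 0.66 ± 0.10 (adjusted p = 8.01e-05), and the other FABP5 probe set was at -0.55 ± 0.35.

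Cell cycle genes were higher. Of 46 measured 20 rose and none fell, 44 differences were positive, and the median was 0.46. CCNB1 (cyclin B1), which drives entry into mitosis, was at 10.44, 10.42 and 9.93 in exposed and 8.99, 8.81 and 9.00 in control arrays. It rose by 1.33 ± 0.22 (2.51-fold, adjusted p = 0.000161). BIRC5 (survivin), of the chromosomal passenger complex, was at 9.97, 10.03 and 9.36 against 8.57, 8.53 and 8.60, a rise of 1.22 ± 0.20 (adjusted p = 0.000145). TYMS and RRM2, enzymes of nucleotide supply for DNA synthesis, rose by 1.16 ± 0.27 and 1.10 ± 0.24, and the mitotic kinases PLK1 and AURKA by 0.96 ± 0.14 and 0.83 ± 0.17. In each of these genes, which were chosen as called, the exposed arrays lay above every control, against 17.9% of all genes. The replicate block called 24, and with the extraction day 16. The replication genes MCM4 and MCM2 did not pass, at -0.11 and 0.24. The count was 11 without exposed array 1 or 2, 13 without control array 2, and 5, 5 and 17 without both arrays of replicate 1, 2 or 3, with medians of 0.41, 0.40 and 0.53. TYMS was not called without exposed array 2 (adjusted p = 0.0604). The other TYMS probe set was at 0.14 (adjusted p = 0.667 in limma).

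Targets of p53 and DNA repair genes are of interest because the agent alkylates DNA. Of 21 p53 targets 5 rose and none fell (median 0.20). CDKN1A (p21), the inhibitor of cyclin-dependent kinases, was at 11.24, 11.04 and 11.26 against 10.20, 10.14 and 10.23. Its groups were far apart relative to their spread, and it rose by 0.99 ± 0.16 (1.99-fold, adjusted p = 0.000149). GADD45A rose by 0.95 ± 0.22, the kinase PLK2 by 0.73 ± 0.20, PHLDA3, a repressor of AKT signalling, by 0.68 ± 0.12 and the damage sensor XPC by 0.40 ± 0.10. The count was 2 without exposed array 2 or control array 3, 3 without control array 1 or 2, and 3, 2 and 3 without both arrays of replicate 1, 2 or 3, and GADD45A was not called without exposed array 2 (adjusted p = 0.162) or control array 3 (0.095). PLK2 was called only with all arrays or without exposed array 3 (highest adjusted p 0.109), nor XPC without exposed array 2 or any 1 control array (highest 0.122). Under the replicate block 7 of the p53 targets rose and 1 fell, and with the extraction day 3 rose. Of 28 repair genes 2 rose, a share near the 4.18% of all genes, and the median was 0.08. The count was 4 with the replicate block and 1 with the extraction day. MGMT, which removes alkyl groups from guanine, was at 9.97, 10.69 and 9.79 in exposed and 9.00, 8.93 and 8.92 in control arrays, with 8.36 in the sham. It rose by 1.20 ± 0.19 (2.29-fold, adjusted p = 8.31e-05) and was called without each single array. The checkpoint kinase CHEK2 rose by 0.37 ± 0.11 (adjusted p = 0.0429), a call that held only with all arrays or without exposed array 3.

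Immediate early genes, transcription factors switched on within minutes of a stimulus, rose in 6 of 23 cases, with none lower and a median of 0.66. FOS, a subunit of AP-1, was at 12.83, 13.04 and 13.56 against 10.62, 10.23 and 10.90, a rise of 2.56 ± 0.63 (5.90-fold, adjusted p = 0.0113). ATF3, a stress-response factor, rose by 1.75 ± 0.38, the nuclear receptor NR4A2 by 1.68 ± 0.49, EGR1 by 1.62 ± 0.46, SGK1, a kinase induced by glucocorticoids and osmotic stress, by 0.99 ± 0.19 and JUN by 0.90 ± 0.26. The other EGR1 probe sets were at 1.55 and 1.23 and were not called (adjusted p 0.0799 and 0.237 in limma). There were 9 rises in the list with the replicate block and 8 with the extraction day. Here exposed array 3 stood highest: the mean level of the list was 10.65 in it, 9.99 and 10.08 in exposed arrays 1 and 2, and 9.46, 9.50 and 9.66 in the controls. ATF3 was at 9.85 in exposed array 3 and at 7.81 and 7.93 in the other two. Without exposed array 3, 2 genes of the list rose and 1 fell, and ATF3 was not called (adjusted p = 0.0767). The count was 2 without control array 2, and 3 without control array 1, control array 3 or exposed array 2. Leaving out both arrays of replicate 1, 2 or 3 gave counts of 2, 2 and 1. FOS lost its call without control array 2 (adjusted p = 0.0692), EGR1 without any array but exposed 1 (0.0559 to 0.164) NR4A2 in all 6 fits without 1 array (0.0506 to 0.239) and JUN in 5 of them (highest 0.175).

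**Figure D3:**
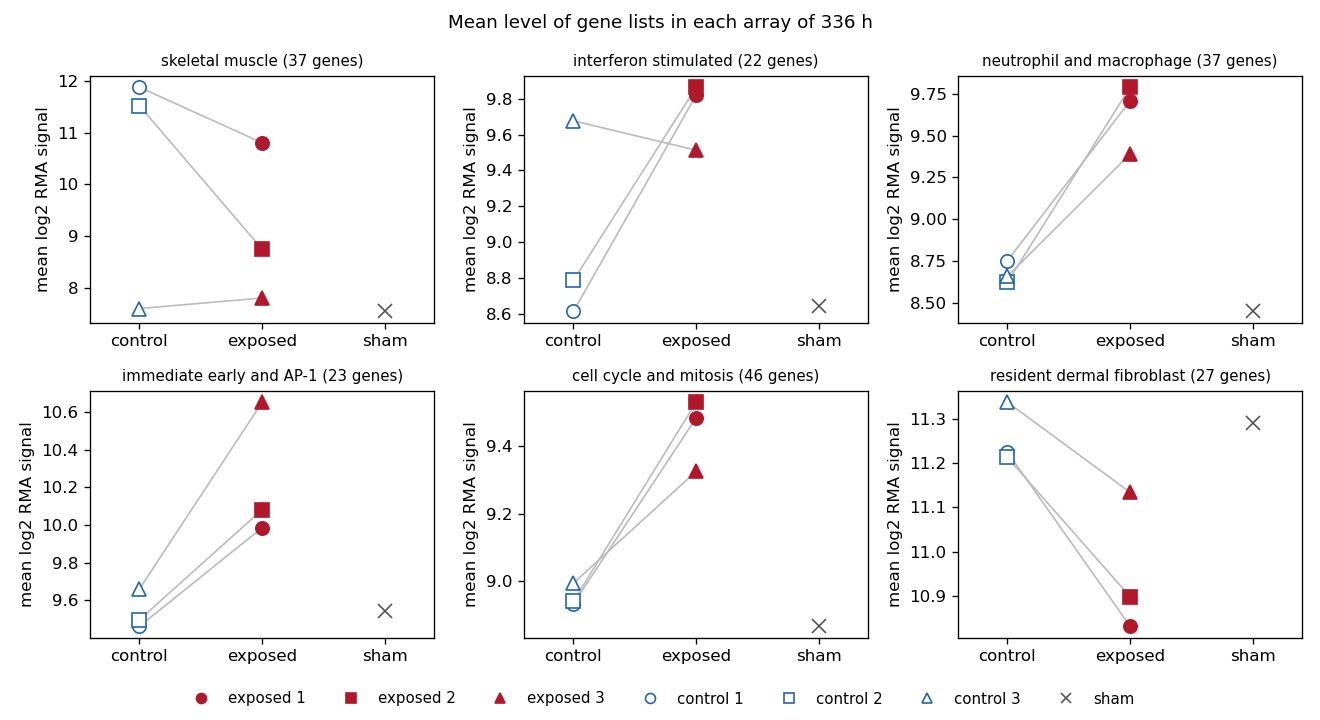
Mean log2 RMA signal (y axis, a separate range in each panel) of 6 gene lists in each array of 336 h: controls (open blue), exposed (filled red) and sham (cross), with lines joining arrays of the same replicate number. Neutrophil and macrophage, cell cycle and immediate early genes are higher and resident fibroblast genes lower in the exposed array of all 3 pairs, while interferon genes are as high in control array 3 (9.68) as in exposed arrays and muscle genes are low in both arrays numbered 3.

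Interferon-stimulated genes showed no call. All 22 measured had a positive mean difference and the median was 0.63, yet none passed in limma, and 3 had an unadjusted p below 0.05. The mean level of the list was 9.82, 9.86 and 9.51 in exposed arrays, 8.62 and 8.79 in control arrays 1 and 2, 9.68 in control array 3 and 8.64 in the sham. The medians were 1.15 and 0.94 in pairs 1 and 2 and -0.24 in pair 3. ISG15, a ubiquitin-like protein induced by interferon, was at 11.30, 11.59 and 10.50 in exposed and 9.15, 9.39 and 10.88 in control arrays, a difference of 1.32 ± 0.74 (adjusted p = 0.435). With the replicate block 4 were called, PLAC8, MX2, IRF1 and IRF7. Without both arrays of replicate 3 the median was 1.07 and none was called.

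Among secreted plasma-type proteins, 4 of 30 genes of complement and the acute phase were called, all higher (median 0.17). CLU (clusterin), a chaperone and complement inhibitor, was at 13.24, 13.13 and 12.41 against 10.98, 10.78 and 10.76. It rose by 2.09 ± 0.25 (4.25-fold, adjusted p = 1.41e-06) with no overlap. C3, the central complement component, was at 11.01, 11.02 and 11.01 in exposed and 9.63, 8.91 and 8.96 in control arrays (1.85 ± 0.48), C4A rose by 1.51 ± 0.32 and ITIH4 by 0.89 ± 0.23. C3 was not called without exposed array 1 or 2 or control array 2 or 3 (adjusted p 0.0655 to 0.091), and without any of those, or with the extraction day as a block, the count of the list was 2. Of 17 gland and secretory genes 3 rose: TCN1, a vitamin B12 carrier also found in neutrophil granules, by 2.67 ± 0.48 (6.36-fold, adjusted p = 0.00048), LTF as above, and CHI3L1, a chitinase-like protein, by 1.07 ± 0.24, which was not called without exposed array 1 (adjusted p = 0.0787). The other TCN1 probe set was at 0.29.

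Antioxidant genes rose in 6 of 36 cases with none lower and a median of 0.07. HMOX1, the heme-degrading oxygenase, was at 11.08, 11.01 and 10.88 against 9.66, 9.63 and 9.72, a rise of 1.32 ± 0.23 (2.50-fold, adjusted p = 0.000366). NQO1, a quinone reductase, rose by 1.21 ± 0.32, TXN (thioredoxin) by 0.71 ± 0.10, the glutathione transferase GSTO1 by 0.58 ± 0.16, the peroxiredoxin PRDX1 by 0.52 ± 0.11 and FTL by 0.32. Blocking on the replicate number gave 9 rises and 1 fall. The glutathione synthesis genes GCLC and GCLM were at 0.06 and 0.04. The other TXN probe set was at -0.05. The count was 3 without exposed array 1, exposed array 2 or control array 2, and NQO1 was called only with all arrays or without exposed array 3 (highest adjusted p 0.138). GSTO1 and FTL lost their calls in 4 and 5 of the 6 fits (highest 0.317 and 0.177). Of 25 hypoxia and glycolysis genes 4 rose: the glucose transporters SLC2A3 (1.54 ± 0.36) and SLC2A1 (1.04 ± 0.20), and ENO1 and HK1, enzymes of glycolysis, at 0.50 ± 0.11 and 0.49 ± 0.12. Blocking on the replicate number gave 6 rises and 2 falls in this list. VEGFA, a hypoxia-induced vessel growth factor, was at -0.42 ± 0.16 (adjusted p = 0.142). Without exposed array 1 the count was 1, and neither SLC2A3 (adjusted p = 0.103) nor ENO1 (0.084) nor HK1 (0.0588) was called.

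Endothelial genes gave 1 rise and 1 fall in 28, counts close to the 4.18% and 1.83% of all genes. SELP (P-selectin), which tethers leukocytes to vessels, rose by 0.72 ± 0.17 and the water channel AQP1 fell by 0.69 ± 0.15. PECAM1 and VWF, general endothelial marks, were at 0.03 ± 0.14 and 0.13 ± 0.18. Under the replicate block 4 of the 28 rose and 1 fell. SELP was not called without exposed array 1 or 2 or control array 2 or 3 (highest adjusted p 0.0837).

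Several of the largest falls were metabolic or regulatory genes. QPCT, a glutaminyl cyclase, was at 8.30, 8.24 and 8.46 in exposed and 10.80, 10.56 and 10.73 in control arrays. It fell by 2.37 ± 0.24 (to 0.194 of the control signal, adjusted p = 3.55e-08), although 2 other probe sets of the gene were at -0.17 and 0.01. SULT1E1, the estrogen sulfotransferase, was at 6.81, 6.97 and 8.12 against 8.75, 9.75 and 9.23, a fall of 1.95 ± 0.44 (adjusted p = 0.00502), which was not called without exposed array 1 (0.0557) or control array 2 (0.055). RORA, a nuclear receptor of the circadian clock that is also expressed in keratinocytes, was at 7.34, 7.16 and 8.00 against 8.64, 9.62 and 9.03. It fell by 1.60 ± 0.21 (adjusted p = 5.29e-06), and CRY2, a clock repressor, by 0.57 ± 0.17, so that 2 of 7 circadian genes fell and none rose, with 4 falls under the replicate block and 1 with the extraction day. CRY2 was not called without exposed array 1 or 2 or any 1 control array (highest adjusted p 0.297).

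Of 29 genes of steroid, retinoid and drug metabolism 2 fell and 1 rose, against 1.83% and 4.18% of all genes. The falls were SULT1E1 and CYP27A1, a sterol hydroxylase (0.79 ± 0.18), whose other probe sets were at -0.78 and -0.09. The gene that rose was CYP2C91, a cytochrome P450 of family 2, by 2.48 ± 0.31 from 6.47, 6.90 and 7.16 to 9.19, 9.73 and 9.06 (5.58-fold, adjusted p = 2.33e-06). Under the replicate block 2 of this list rose and 3 fell. CYP27A1 was not called without exposed array 2 (adjusted p = 0.0628). CYP7A1, a sterol hydroxylase known from liver, fell by 1.49 ± 0.31, the secretory GTPase RAB26 by 1.52 ± 0.27 and the lipid hydrolase-like gene ABHD12B by 1.73 ± 0.34. FABP7, a fatty acid-binding protein of glia, fell by 1.43 ± 0.38 and MYOC (myocilin) by 1.36 ± 0.38. FABP7 was not called without exposed array 1 or 2 or control array 1 or 3, nor MYOC without exposed array 2 or 3 or control array 1 or 2 (highest adjusted p 0.232 and 0.188). HOXA9, a homeobox gene of body position, fell by 1.46 ± 0.33, with exposed arrays at 8.12, 8.21 and 8.13 and controls at 9.59, 9.63 and 9.61. The sham animal was at 7.75, below the exposed arrays, so for this gene the direction depended on which unexposed skin was used.

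Some large rises had no list. LOC396867 was at 9.08, 10.36 and 9.06 in exposed and 6.60, 5.87 and 6.20 in control arrays. It rose by 3.28 ± 0.33 (9.68-fold, adjusted p = 3.55e-08), and its groups lay far apart. ADAMDEC1, a metalloproteinase-like gene of macrophages, rose by 2.89 ± 0.65 (adjusted p = 0.00543), with exposed array 3 at 8.88 and the sham at 8.26, above all 3 controls (6.55, 6.28 and 7.74). LOC100152327 rose by 2.74 ± 0.78 (adjusted p = 0.0344), a call that was lost when any single array was left out (highest adjusted p 0.145).

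Markers of other tissues of the biopsy showed few calls. Of 37 skeletal muscle genes 1 rose and none fell in limma, against 4.18% and 1.83% of all genes, with 2 below an unadjusted p of 0.05. The gene that rose was TPM3, a tropomyosin also made outside muscle (0.37 ± 0.11, not called when any single array was left out). The other TPM3 probe sets were at 0.36 and -0.37. The replicate block called 1 higher and 2 lower of the muscle list. The median was -1.20, and by pair it was -0.80, -3.31 and 0.20, and its part in other results was tested with the muscle level as a covariate, above. MYH7, a slow myosin, was at 8.55, 7.84 and 7.00 in exposed and 12.21, 11.72 and 6.71 in control arrays (difference -2.42 ± 1.56). Of 17 adipocyte genes none was called (8 at an unadjusted p below 0.05), 13 differences were negative and the median was -0.44. ADIPOQ (adiponectin) was at 10.43, 10.35 and 11.51 against 11.52, 11.78 and 11.79 (difference -0.93 ± 0.36, adjusted p = 0.167, and 0.0324 with the replicate block, which called 1 higher and 2 lower). Of 9 nerve genes UCHL1 rose by 1.23 ± 0.30 and the adhesion molecule NCAM1 fell by 1.05 ± 0.21. Blocking on the replicate number gave 1 rise and 2 falls among the nerve genes. UCHL1 was not called without exposed array 2 or control array 2 (adjusted p 0.0916 and 0.0746). No gene of the melanocyte (9), mast cell (3) or erythrocyte (5) lists was called in limma, and none had an unadjusted p below 0.05. Their members with the largest size were MITF (-0.35 ± 0.18), GATA2 (-0.31 ± 0.16) and HBB (-0.21 ± 0.21).

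The comparison with 168 h, where other animals with their own controls were sampled, asked how far the response had moved since the first week. The arrays of the 3 times compared here were processed in different periods, and differences between times cannot be told apart from the period. The response differed for 270 probe sets (1.13%), 141 more positive and 129 more negative at 336 h, and for 123 of the genes (1.82%). With the replicate block the count was 609 probe sets. Of the 283 genes higher at 336 h, 206 (72.8%) were also called higher at 168 h, where 14.5% of all genes were. These 206 were 21.0% of the 979 genes higher at 168 h. Of the 124 lower genes 85 (68.5%) were also lower at 168 h, where 9.46% of all genes were, and these were 13.3% of the 640 lower at 168 h.

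Of the 14 genes of keratinocyte differentiation 7 differed from 168 h, all more positive at 336 h, against 1.82% of all genes. KRT1 had been lower by 5.23 at 168 h and was at -0.13 at 336 h, a difference between the responses of 5.10 (adjusted p = 7.44e-12). KRT10 went from -4.10 to -0.17 (adjusted p = 1.36e-09) and CALML5, a calcium-binding protein of the late epidermis, from -4.31 to -0.53 (adjusted p = 2.29e-06). SERPINB7, an epidermal protease inhibitor, went from -3.85 to -0.48 and HOPX from -2.90 to -0.93. KRT2, with -4.66 at 168 h and -2.79 at 336 h, did not pass this test (adjusted p = 0.441). IVL, at -0.22 and 1.02, had an adjusted p of 0.118.

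In the other direction, the response of TNC was 4.28 at 168 h and 1.61 at 336 h (difference -2.67, adjusted p = 0.00835). PTX3 (pentraxin-3), an acute inflammatory mark, went from 2.79 to 0.16, CCR1 from 3.31 to 1.20, CCL2 from 3.51 to 1.53, SLC2A3 from 3.81 to 1.54 and AREG from 2.66 to 1.20. SLC2A5, a fructose transporter, went from 2.52 to 0.04. CXCL8 (6.12 and 4.26) and MMP1 (5.95 and 3.90) did not pass the same test (adjusted p 0.559 and 0.309). MMP13 was 0.60 at 168 h and 2.03 at 336 h (adjusted p = 0.0389), and LOC396867 was -1.14 and 3.28 (difference 4.41, adjusted p = 1.38e-07), with opposite signs at the 2 times.

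**Figure D4:**
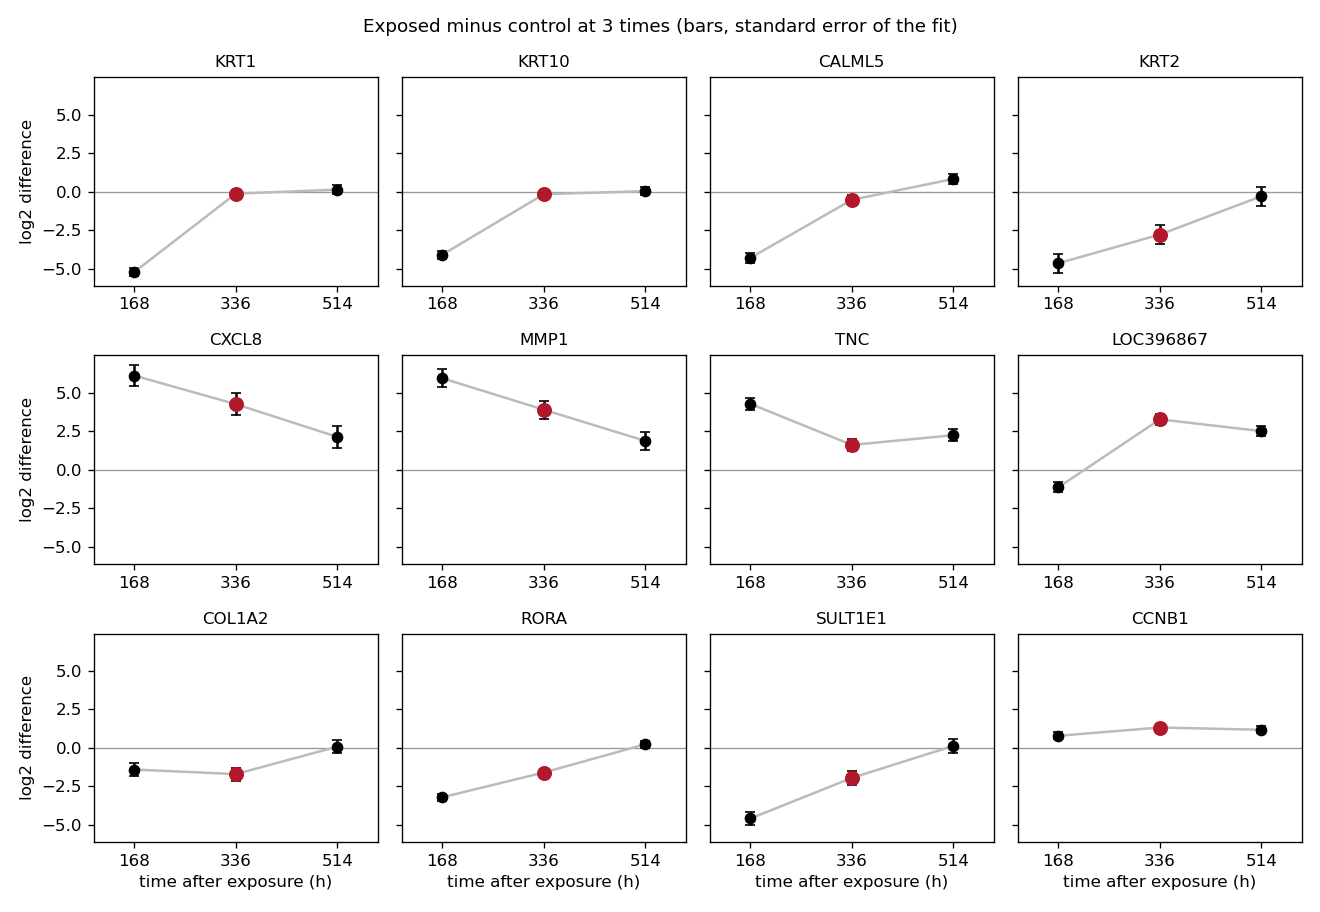
Log2 difference, exposed minus control (y axis, the same range in all panels), at 168, 336 and 514 h for 12 genes; points are means of 3 exposed against 3 control arrays and bars the standard error of the limma fit, with 336 h in red. KRT1 and KRT10 are near 0 at 336 h after about 5 and 4 log2 units below control at 168 h, KRT2 is still at -2.79, LOC396867 changes sign, and RORA (-1.60 at 336 h) is at 0.24 at 514 h.

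Against 514 h 3 probe sets differed (0.0125%), 1 of them standing for its gene (0.0148% of genes), all more negative at 336 h, and 1762 had an unadjusted p below 0.05. The response of RORA was -1.60 at 336 h and 0.24 at 514 h (difference -1.84, adjusted p = 0.0071). It was called with the replicate block too (adjusted p = 0.0167), where the count was 1. FGFBP3, named because the count is small, was at 0.24 at 336 h and 0.86 at 514 h on a probe set that is not its brightest, and the remaining probe set has no gene name here. Of the 283 genes higher at 336 h 120 (42.4%) were higher at 514 h as well, where 5.56% of all genes were, and these were 31.9% of 376. Of the 124 lower 52 (41.9%) were lower at 514 h, where 2.00% of all genes were, and these were 38.5% of 135. KRT2 was at -0.30, COL1A2 at 0.08 and SULT1E1 at 0.14 at 514 h, and none of the 3 passed the test of the difference (adjusted p 0.493, 0.476 and 0.359). At 168, 336 and 514 h 29, 20 and 22 of 46 cell cycle genes and 32, 17 and 4 of 37 neutrophil and macrophage genes were higher, where 14.5%, 4.18% and 5.56% of all genes were. Differences between these counts were not tested. No cell cycle gene differed between 168 and 336 h or between 336 and 514 h by the test of the difference, while 2 of the 37 genes, CCR1 and SLC11A1, did so between 168 and 336 h and none between 336 and 514 h.

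The sham array differed from the 3 controls by 1 probe set, AKAP13 (-2.59, adjusted p = 0.00542), with 397 at an unadjusted p below 0.05. Set against the single sham array instead of the controls, 1 of the 107 genes named by rule changed sign, HOXA9 (0.40 higher in exposed).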

How the data were processed

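RNA of 63 skin biopsies was measured on 1 array each. The authors deposited 1 log2 signal for each probe set and array. RMA and Partek are named in the submitters' processing notes, without versions. The lowest value is 4.053 and the highest 14.53. Medians of the 336 h arrays lay between 7.774 and 7.79, so nothing was rescaled. RMA shrinks differences of dim probe sets. Precision is limited by having 3 arrays a group: at 336 h, arrays of 1 group differed from each other with an SD over probe sets of 0.2332 to 0.3788.

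All 63 arrays were fitted in limma 3.58.1 (R 4.3.3, with jsonlite 2.0.0 and version 1.17.8 of data.table) with 27 group means, 36 residual and 3.24 prior degrees of freedom. The contrasts were exposed minus control at 336 h and its differences from 168 and 514 h. P-values were two-sided and adjusted by Benjamini-Hochberg over 23999 probe sets (124 control probe sets left out), with a threshold of 0.05. In the text ± is the standard error of this fit unless SD is named. On simulated data it called 50% of changes of 0.5, 91.04% of 1 and 100% of 2 (log2), with 4 false among 165 calls. The simulation changed few probe sets and drew independent noise, without pairs, extraction days or differences in muscle. These rates need not hold for the real arrays.

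The supplied annotation gave 1 symbol to 10069 tested probe sets, several to 198 and none to 13732; 9961 were matched to RefSeq Sscrofa11.1 by gene number. For the 2261 of 6765 genes with several probe sets the brightest probe set on average over the series stands for the gene. The 31 gene lists held 1183 symbols, of which 661 were measured, 8 through a RefSeq synonym.

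The comparison, the lists and the rule for naming genes were chosen with earlier results of these data known. The rule took the 15 largest called rises and the 15 largest called falls with 1 sign in the 3 same-numbered pairs, up to 5 called members of each list by size (or, with none, the member with the largest difference), and the 5 largest called differences in each direction against 168 and 514 h. Other genes were chosen after their values were seen.

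Same-numbered arrays deviated together from their group means at 336 h (r = 0.688, 0.147 and 0.606 for replicates 1, 2 and 3 over probe sets), and the design text has the same animals giving both sites. Both arrays of replicate 1 shared an extraction day, as did both of replicate 3, while those of replicate 2 did not. These correlations therefore cannot tell a shared animal from a shared day. Exposed array 1 also correlated with control array 2 (r = 0.235). Taking the numbers as pairs is thus an assumption. Values with the replicate block are given beside results whose call it changes or whose count it moves by over 1.5 times. The main fit leaves the block out. The labels do not tie a number to an animal, so p-values measure a spread between biopsies. The main fit pools this spread within the groups of all times of the series. Its p-values and standard errors therefore do not measure the spread of the 6 arrays at 336 h alone. Alternatives were the replicate block, the 6 arrays alone, the extraction day as a block, a further quantile normalization, a filter on low values, the muscle level as a covariate, an intensity trend, a minimum change and leaving out arrays. Leaving out both arrays of a replicate number, and the sham array as the comparison, were chosen after seeing the data.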

Additional observations from a re-analysis of the deposited data

Results flagged for a closer look

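The response at 336 h differed from that at 168 h by the interaction test in limma for 17 of the genes named by rule. The difference (336 h minus 168 h, log2) was positive for KRT1 (5.0962), LOC396867 (4.4116), KRT10 (3.9307), CALML5 (3.777), SERPINB7 (3.3673), SULT1E1 (2.6355), HOPX (1.9732), RORA (1.6093), MMP13 (1.4317) and FABP5 (0.7197). It was negative for TNC (-2.6693), PTX3 (-2.6303), SLC2A5 (-2.4736), SLC2A3 (-2.2703), CCR1 (-2.1154), CCL2 (-1.9739) and AREG (-1.4559). Against 514 h the response of RORA differed by -1.8361. The adjusted p was 0.0183 for AREG, 0.0415 for CCL2, 0.0389 for MMP13, 0.0334 for SLC2A5, 0.0198 for SULT1E1, 0.0136 for SLC2A3 and below 0.01 for the others. The 3 times were processed in different periods, which cannot be told apart from time.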

How the results depend on the processing

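The count of called probe sets stayed within 1.5 times of 970 on the 6 arrays alone (929), after quantile normalization (940), with the filter on low values (781), the muscle level (1090) or the intensity trend (970), and with the extraction day as a block (647, where the lower calls were 252). With the replicate block it was 1736 (945 higher, 791 lower), with 609 differences against 168 h and 1 against 514 h. On the 6 arrays with that block it was 1987 (959 higher, 1028 lower). Of the 96 named genes that passed, the replicate block ended no call, the extraction day 22 and the muscle level 5. A minimum change of 1 left 292 (184 higher, 108 lower), and the filter left 1 difference against 514 h. Without 1 array the counts ran from 432 to 1201 called, 242 to 667 higher and 145 to 534 lower, with 137 to 275 differences against 168 h and 1 to 8 against 514 h. Without both arrays of replicate 1, 2 and 3 they were 270, 161 and 678 called, 171, 99 and 419 higher, 99, 62 and 259 lower, 103, 169 and 130 against 168 h, and 1, 6 and 4 against 514 h; these fits have fewer arrays. The histology difference ran from -7.5 to -5 and the muscle difference from -2.587 to -0.4436 without 1 array. Only HOXA9 among the 107 named genes turned, to 0.40434, with the sham array as the comparison. The cause of these changes was not tested.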
